A study of Mus musculus with 2 samples.

Results

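The 376 genes described here are mouse protein-coding genes with an H3K27ac peak at a gene end in Gata2 f/f leukaemia cells and no Gata2 KO peak near either end. They are 1.84% of the 20400 protein-coding genes considered on chromosomes 1 to 19 and 3.51% of the 10707 genes with an f/f peak at an end. They rest on 368 f/f peaks, of which 357 served 1 of the genes and 11 served 2. A gene was taken when an f/f peak lay within 1000 bp of its start or end and the nearest KO peak lay more than 5000 bp from both. The genes were thus chosen by the peak calls of the same 2 libraries, and those values are given below as a description, with no test. Distances to KO peaks run from the gene ends, so a KO peak inside a long gene can be the nearest. It can also lie near the end without the f/f peak, far from that peak. By the mirror rule 249 genes had a KO peak alone, which is 1.22% of the genes considered and 2.35% of the 10610 genes with a KO peak at an end.

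The study mapped H3K27ac by ChIP-seq in mouse leukaemia cells carrying the MLL-AF9 fusion (MA9 cells), with Gata2 deleted (Gata2 KO, 1 library) or with the floxed gene intact (Gata2 f/f, 1 library), and its title concerns Gata2 and drug resistance in acute myeloid leukaemia. Leukaemia cells from the bone marrow of primary animals received Cre or, as the control, MIT, were sorted for GFP and tdTomato, and were cultured for 7 to 9 days in medium containing SCF, IL-6 and IL-3. Both groups therefore carried MLL-AF9 and had been transduced and sorted. Genotype, vector and library cannot be told apart with 1 library each, and the differences described have no replicates behind them.

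The deposited lists held 37302 KO peaks and 34313 f/f peaks, and the reads behind them are unknown. On chromosomes 1 to 19 the median −log10 p was 9.36 for KO peaks and 12.1 for f/f peaks. The KO list had 4 peaks on chromosome Y and the f/f list 0. The first megabases of chromosomes 4, 6, 7, 13, 18 and 19, were left out with their 265 genes, and when they were included 389 genes were f/f alone and 341 KO alone. Of 13 genes that mark myeloid progenitors or this kind of leukaemia, 9 had a KO peak and 13 an f/f peak at an end, and of 10 genes of other lineages 1 had a KO peak and 3 an f/f peak. Hoxa9, Meis1 and Mpo counted as f/f-marked with a KO peak 1 to 5 kb away. Among the other-lineage genes only Pecam1 was in that class too, Alb was marked in both lists, Epcam and the progenitor gene Cd34 were f/f alone, and Pax5, Cd3e, Hbb-bt, Cdh5 and Col1a1 were marked in neither.

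Acetylation of lysine 27 on histone H3 is laid down by the acetyltransferases p300 and CBP around active promoters and enhancers, on the nucleosomes that flank the open site. In most mammalian genes that are active in many tissues the promoter is rich in CG dinucleotides, whereas tissue-restricted genes more often start from CG-poor sequence. GATA2 is a zinc finger factor of blood stem and progenitor cells that binds sites with the core GATA, mostly in enhancers. A peak at a gene end marks acetylated chromatin there and does not measure the gene's RNA.

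Promoter sequences show what kind of DNA lies under these peaks. RefSeq windows from 250 bases before to 50 bases after a transcription start (build GRCm38.p6, the same build as mm10) were available for 275 of the 376 genes. In the 6 windows below, those with the highest fold enrichment among windows lying wholly under their f/f peak, capitals mark CG dinucleotides and the sequence runs 5′ to 3′ on the strand of the gene. Hook1 is at chr4:95967129-95967428 on the plus strand, Zfp551 at chr7:12422442-12422741 on the minus strand, Arfgef3 at chr10:18743709-18744008 on the minus strand, Zc3h12c at chr9:52168357-52168656 on the minus strand, Pkp4 at chr2:59161619-59161918 on the plus strand at a start inside the gene, and Adgra3 at chr5:50058947-50059246 on the minus strand.
Hook1: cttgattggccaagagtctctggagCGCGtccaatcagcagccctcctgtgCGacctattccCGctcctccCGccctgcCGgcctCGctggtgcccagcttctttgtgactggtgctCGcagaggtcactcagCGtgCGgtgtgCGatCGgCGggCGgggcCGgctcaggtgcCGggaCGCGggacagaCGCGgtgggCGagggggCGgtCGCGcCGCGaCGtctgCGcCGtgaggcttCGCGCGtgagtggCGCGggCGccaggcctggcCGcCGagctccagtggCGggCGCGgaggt
Zfp551: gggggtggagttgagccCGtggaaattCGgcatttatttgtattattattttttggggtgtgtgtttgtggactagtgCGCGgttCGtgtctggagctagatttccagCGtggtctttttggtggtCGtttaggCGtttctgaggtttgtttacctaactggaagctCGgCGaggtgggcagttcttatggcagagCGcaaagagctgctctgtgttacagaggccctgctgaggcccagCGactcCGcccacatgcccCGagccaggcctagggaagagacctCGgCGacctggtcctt
Arfgef3: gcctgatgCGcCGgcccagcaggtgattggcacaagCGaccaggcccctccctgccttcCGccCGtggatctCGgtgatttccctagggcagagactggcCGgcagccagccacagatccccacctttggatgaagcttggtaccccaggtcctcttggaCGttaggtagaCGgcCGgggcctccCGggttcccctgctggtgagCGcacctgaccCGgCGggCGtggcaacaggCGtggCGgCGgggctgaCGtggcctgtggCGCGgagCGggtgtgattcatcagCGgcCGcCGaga
Zc3h12c: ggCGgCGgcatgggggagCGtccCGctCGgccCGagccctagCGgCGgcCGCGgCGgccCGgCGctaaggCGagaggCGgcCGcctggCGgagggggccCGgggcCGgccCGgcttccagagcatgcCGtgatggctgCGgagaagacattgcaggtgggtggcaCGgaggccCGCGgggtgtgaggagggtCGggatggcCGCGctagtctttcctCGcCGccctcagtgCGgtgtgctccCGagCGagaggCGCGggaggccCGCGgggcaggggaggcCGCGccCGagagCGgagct
Pkp4: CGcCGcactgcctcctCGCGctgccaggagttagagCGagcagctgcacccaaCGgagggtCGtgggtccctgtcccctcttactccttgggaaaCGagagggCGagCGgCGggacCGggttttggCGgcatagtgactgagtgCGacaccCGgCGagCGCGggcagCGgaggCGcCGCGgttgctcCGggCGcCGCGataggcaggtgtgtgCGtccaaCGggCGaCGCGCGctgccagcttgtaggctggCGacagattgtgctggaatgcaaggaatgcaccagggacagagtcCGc
Adgra3: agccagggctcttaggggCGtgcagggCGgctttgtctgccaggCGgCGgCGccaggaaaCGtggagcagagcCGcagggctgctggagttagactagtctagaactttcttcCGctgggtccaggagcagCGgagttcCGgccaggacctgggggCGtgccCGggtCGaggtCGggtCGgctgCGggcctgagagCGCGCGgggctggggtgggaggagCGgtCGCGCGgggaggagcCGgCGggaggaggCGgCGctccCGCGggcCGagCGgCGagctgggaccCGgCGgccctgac
These windows held 40, 16, 25, 41, 34 and 34 CG dinucleotides in the order printed. None of the 6 held the hexamers AGATAA and AGATAG or the hexamers TGATAA and TGATAG on either strand, none held TATAAA, and CCGGAA was found in Adgra3.

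A pair of further windows was chosen after their values were seen, Fzd1 as a Wnt receptor whose window its peak covers only in part and Olfr1310 as the window with the fewest CG dinucleotides. Fzd1 is at chr5:4758167-4758466 and Olfr1310 at chr2:112009135-112009434, both on the minus strand.
Fzd1: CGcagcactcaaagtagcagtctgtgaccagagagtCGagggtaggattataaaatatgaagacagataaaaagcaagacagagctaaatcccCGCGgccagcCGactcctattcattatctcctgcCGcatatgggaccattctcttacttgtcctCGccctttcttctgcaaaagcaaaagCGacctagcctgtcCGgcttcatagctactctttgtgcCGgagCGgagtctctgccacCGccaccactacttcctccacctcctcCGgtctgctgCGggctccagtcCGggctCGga
Olfr1310: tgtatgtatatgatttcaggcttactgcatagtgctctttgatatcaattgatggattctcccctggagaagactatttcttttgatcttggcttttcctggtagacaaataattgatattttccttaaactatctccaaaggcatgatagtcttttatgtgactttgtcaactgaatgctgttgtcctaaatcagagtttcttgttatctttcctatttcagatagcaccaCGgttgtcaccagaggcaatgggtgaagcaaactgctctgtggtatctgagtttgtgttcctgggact
The Fzd1 window held 16 CG dinucleotides and the Olfr1310 window 1. Both held at least 1 of the GATA hexamers named above, and Fzd1 also held TATAAA. In the Fzd1 window all these words lay in the part that the f/f peak, which ends at chr5:4758280, does not cover.

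Over all windows under the genes' own peaks, the promoters were mostly CG-rich. Of 204 such windows of 190 f/f-alone genes, 79.4% held at least 10 CG dinucleotides (95% Wilson interval 73.3 to 84.4), with a median of 21. In the 102 windows of 93 KO-alone genes under their KO peaks the share was 51.0% (41.4 to 60.5) and the median 10. The other f/f-marked genes had 89.4% of 8594 windows CG-rich and a median of 23, all 19884 windows 58.1%, and windows under no f/f peak 28.5%. Since most f/f-alone peaks were weak, the genes in the weakest 2 of 10 bins of f/f peak strength were also set side by side: 77.0% of 161 f/f-alone windows and 68.6% of 1100 windows of other f/f-marked genes were CG-rich. The CG-rich share of f/f-alone windows lay closer to that of the other f/f-marked genes than the KO-alone share did. The KO-alone windows were not set beside windows of other KO-marked genes or matched by peak strength. Genes are not independent replicates, and no test was made.

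**Figure D1:**
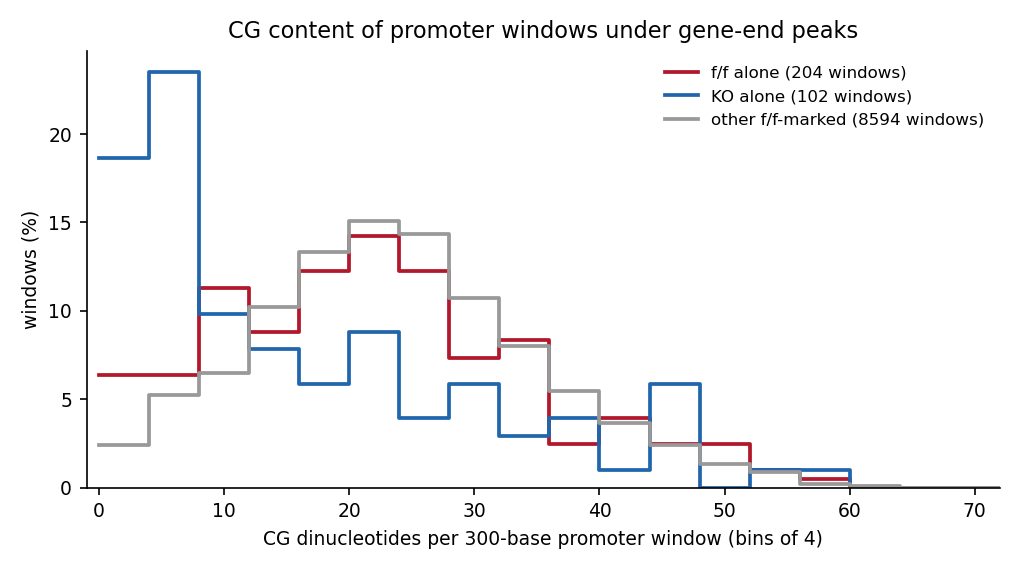
Share of 300-base promoter windows (vertical axis, percent) by number of CG dinucleotides (horizontal axis, bins of 4) for f/f-alone genes, KO-alone genes and other f/f-marked genes, each under peaks at the gene's own ends. The medians were 21 for f/f-alone, 10 for KO-alone and 23 for other f/f-marked windows, and the KO-alone windows have their highest bins below 8.

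Short sequence words were counted on both strands, each window once per word whatever overlapped. Any of the same 4 GATA hexamers was in 13.7% (9.67 to 19.1) of f/f-alone windows, 20.6% (13.9 to 29.4) of KO-alone windows, 15.8% of windows of other f/f-marked genes and 25.6% of all windows. In the weakest 2 strength bins the shares were 14.9% (10.23 to 21.2) of f/f-alone windows and 22.8% (20.4 to 25.4) of windows of other f/f-marked genes. CCGGAA, the core of many ETS factor sites, was in 13.2% (9.26 to 18.6) of f/f-alone windows and 6.86% of KO-alone windows, against 32.8% (31.8 to 33.8) of windows of other f/f-marked genes and 19.1% of all windows. In the same 2 weakest bins CCGGAA was in 14.9% of f/f-alone windows against 17.3% of windows of other f/f-marked genes. TATAAA was in 4.41% of f/f-alone windows, 5.83% of windows of other f/f-marked genes and 12.7% of all windows. In the same order CCAAT was in 36.3%, 38.3% and 38.1%, and GAGGAA in 21.6%, 25.6% and 27.1%. TGTGGT was in 10.8%, 11.9% and 14.8%, TGACAG in 14.7%, 16.7% and 18.4%, and CACGTG in 10.3%, 11.1% and 7.89%. A word in a window is a match of letters and not a binding site.

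The peaks themselves were mostly small. The peak at the end of an f/f-alone gene had a median width of 813.5 bp, a median fold enrichment of 3.34 and a median −log10 p of 6.96, ranging from 2.97 to 214. The other 10331 f/f-marked genes had medians of 1439 bp, 4.97 and 63.7. The genes had a median length of 26.1 kb, against 21.4 kb for the other f/f-marked genes. The widths, folds and p-values come from the authors' peak list and are compared only within it. Of the 376 genes, 100 (26.6%, interval 22.4 to 31.3) had a peak at or above the f/f list's median −log10 p of 12.1, called strong here, and they were 1.05% of the 9506 genes with such a peak. When all f/f-marked genes were put into 10 bins of equal size by strength, 257 of 1071 genes in the weakest bin were f/f alone (24.0%) and 64 of 1071 in the next (5.98%). In each of the strongest 4 bins 3 genes were f/f alone, 0.28% of the bin. The 31 f/f-alone genes in the strongest 7 bins had a −log10 p of at least 38.6.

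**Figure D2:**
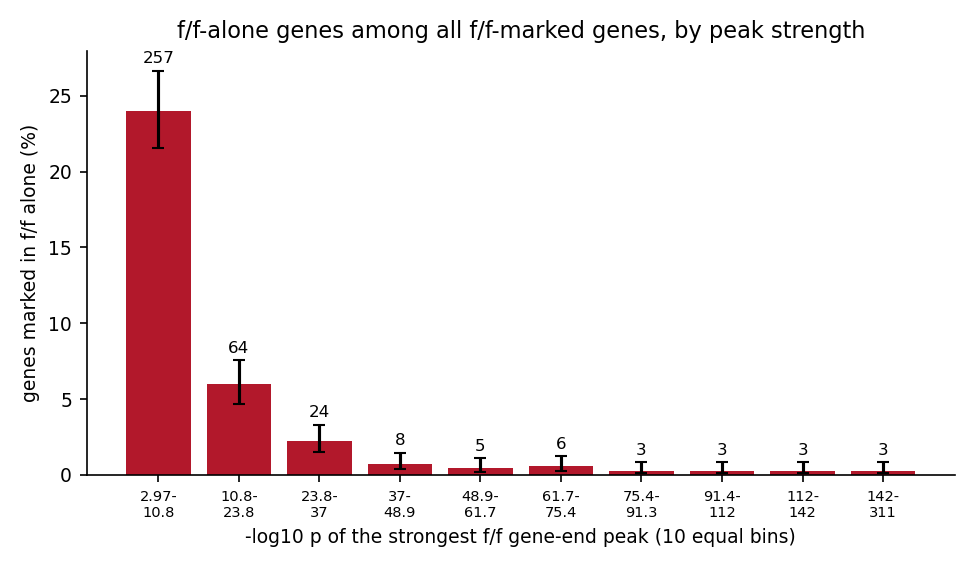
Percent of f/f-marked genes that were f/f alone (vertical axis, bars with 95% Wilson intervals and the number of genes above) in 10 bins of equal size by the −log10 p of the strongest f/f gene-end peak (horizontal axis). The share is 24.0% in the weakest bin, 5.98% in the next and 0.28% in each of the strongest 4.

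The strongest peaks stood at genes of many functions. Zfp507, a zinc finger gene, had its nearest KO peak 17.3 kb from its ends and an f/f peak at chr7:35802156-35803213 with a fold of 8.49, a −log10 p of 214 and a −log10 q of 211. Zc3h12c, of a family of RNA-cleaving zinc finger proteins that restrain inflammatory transcripts, had no KO peak within 49.2 kb and an f/f peak at chr9:52167746-52169072 with a fold of 6.70 and a −log10 p of 168. Within 25 kb of Zc3h12c, the gene included, there were 0 KO peaks and 6 f/f peaks. Kcnq5, a voltage-gated potassium channel, had no KO peak within 179 kb and an f/f peak at chr1:21960276-21962068 with a −log10 p of 157, and its 25 kb surroundings held 0 KO peaks and 6 f/f peaks. These 3 genes were thus unmarked in the KO list at their ends although the f/f peaks were among the strongest at any gene end.

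Arhgap35, a GTPase-activating protein, had no KO peak within 40.8 kb and an f/f peak at chr7:16614014-16615508 with a −log10 p of 139. Tmem64, a membrane protein gene, had a KO peak 23.5 kb away and an f/f peak with a −log10 p of 114. Rcn1, a calcium-binding protein of the endoplasmic reticulum, had no KO peak within 368 kb and an f/f peak at chr2:105398473-105399572 with a fold of 8.02 and a −log10 p of 113, the only f/f peak within 250 kb. Pkp4 and Ccdc148 start close together on opposite strands under 1 f/f peak at chr2:59160658-59162039 (−log10 p 102), and the nearest KO peaks lay 8.16 kb from Pkp4, inside that gene, and 71.0 kb from Ccdc148. The shared f/f peak itself lay 69825 bp from the nearest KO peak. Pkp4 encodes a plakophilin of cell junctions. Mdfic, an inhibitor of MyoD-family factors, had no KO peak within 1033 kb and an f/f peak at chr6:15720458-15721562 with a fold of 7.98 and a −log10 p of 82.4.

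By fold enrichment the first gene was Pomc, the precursor of melanocortin and opioid peptides. Its nearest KO peak lay 49.3 kb away, and its f/f peak at chr12:3959850-3960715, at the 3′ end of the gene, had a fold of 8.81 and a −log10 p of 59.4. Plekha5 followed Zfp507, Rcn1 and Mdfic with a KO peak 12 kb away and a fold of 7.93, and Garem1, an adaptor of growth factor receptor signalling, with no KO peak within 125 kb and a fold of 7.60. The other genes among the first 20 by fold were Rundc3b, Fzd1, Vamp9, Zfp599, Hook1, Ranbp17, Zfp551, Tmem64, Msl3l2, Miga1, Fzd3, Fam174b, Arfgef3 and Zc3h12c, whose folds ran from 7.52 at Rundc3b to 6.70 at Zc3h12c. Among them the nearest KO peak was closest at Miga1, an outer mitochondrial membrane protein gene (5.75 kb), and farthest at Fam174b (103 kb).

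Width ordered the genes differently. The widest peak at an f/f-alone gene was that of Pcdh7, a protocadherin, whose ends lay 190 kb from the nearest KO peak. It had 1 KO peak inside the gene and an f/f peak of 4165 bp at chr5:57714714-57718878 with a fold of 2.13. Stc2, a secreted glycoprotein gene, had no KO peak within 190 kb and an f/f peak of 3141 bp at chr11:31368616-31371756 with a −log10 p of 57.1. Bhlhe41, a repressor of the circadian clock, had a KO peak 11.7 kb away and an f/f peak of 3639 bp with a −log10 p of 4.99. Oacyl, Olfr530, Tnrc18, Slc17a7, Naa11, Ccdc54 and Stx1a completed the widest 10, with widths from 3020 bp at Oacyl to 2290 bp at Stx1a. Of these 10 the peaks of Pcdh7, Stc2, Tnrc18 and Ccdc54 were strong and the other 6 weak.

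KO peaks were near many of the genes but not all. The nearest KO peak lay a median of 18.3 kb from the gene ends, over 5 to 10 kb for 116 genes, over 10 to 25 kb for 105, over 25 to 50 kb for 57, over 50 to 100 kb for 48 and farther for 50. In 91 genes (24.2%) a KO peak lay inside the gene. No KO peak lay in the gene or within 25 kb for 141 genes (37.5%, interval 32.8 to 42.5) and within 250 kb for 17. The 8 genes farthest from a KO peak were Htr1b (1118 kb), a serotonin receptor, Adgra3 (1073 kb), an adhesion receptor, Mdfic (1033 kb), Arhgap28 (937 kb), the predicted gene Gm14410 (693 kb), Mei4 (623 kb), needed for meiotic recombination, Tle1 (621 kb) and Angpt1 (578 kb). Of these, Tle1 and Mdfic had the strongest f/f peaks, with −log10 p of 87.7 and 82.4, and Htr1b the weakest, with 6.15.

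**Figure D3:**
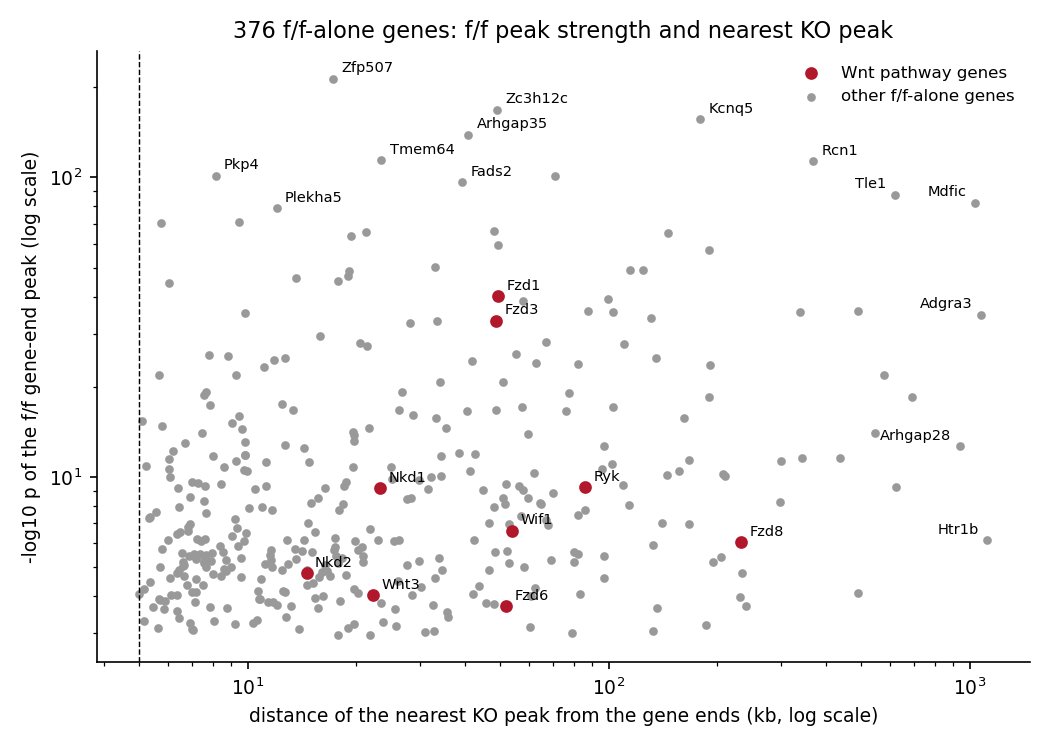
Strength of the f/f gene-end peak (−log10 p, log scale) against the distance of the nearest KO peak from the gene ends (kb, log scale) for the 376 f/f-alone genes, 1 point per gene, with Wnt pathway genes larger and the dashed line at the 5 kb limit of the rule. Strong peaks occur at genes with short and long distances from gene end to KO peak, among them Pkp4 at 8.16 kb and Mdfic at 1033 kb. At Pkp4 that KO peak is near the other end of the gene, and the f/f peak itself lies 69825 bp from the nearest KO peak.

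Both lists had peaks around the genes. Within 250 kb the genes had a median of 12 KO peaks and 13.5 f/f peaks, where the f/f count includes the peak that chose the gene and the KO count lacks any within 5 kb of its ends by the rule. The gene with 25 kb on both sides was covered to a median of 1.24% by KO peaks and 2.76% by f/f peaks, the f/f value including the peak that chose the gene. Of 1979 f/f peaks lying over 5 and up to 100 kb from the genes, a KO peak overlapped 82.0% (80.3 to 83.6), against 83.9% of all 33556 f/f peaks on chromosomes 1 to 19. For strong f/f peaks the shares were 96.7% near the genes and 97.6% among all, and for weak ones 65.9% (62.8 to 68.9) and 70.2% (69.5 to 70.8). Most f/f peaks beside these genes were therefore overlapped by a KO peak.

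Genes lay close to the limits of the rule on both sides. The nearest KO peaks just over the limit lay 5009 bp from Paqr5, 5095 bp from Ephb2 and 5149 bp from Slco1a6, and those just under it 4990 bp from Sbf2, 4940 bp from Adcy9 and 4915 bp from Dnajc22. The f/f peaks just inside 1000 bp lay 1000 bp from Lamc3, 993 bp from Jsrp1 and 958 bp from Shisal1, and those just outside 1012 bp from Ccdc159, 1025 bp from Cyp2t4 and 1030 bp from Mt3. At 17 genes every end peak also lay at the end of another gene that had a KO peak within 5 kb, and 0 of the 376 genes had an end peak that a KO peak overlapped. Of the 275 genes with a known strand, the leading peak was at the 5′ end for 223, at the 3′ end for 46 (16.7%, 12.8 to 21.6) and at both for 6. Among other f/f-marked genes the 3′ end alone led in 631 of 8395 (7.52%, 6.97 to 8.10). The comparison was not matched for peak strength, whose median −log10 p was 6.96 in f/f-alone and 63.7 in other f/f-marked genes. Pomc, Msl3l2, C2cd4b, Smim38 and Plin1 had the highest folds of the 3′ peaks. For the remaining genes the strand was not used here.

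Gene functions were read from gene-name patterns for 35 families, one of them the predicted genes. A named family held 191 of the 376 genes, 22 were predicted or Riken genes and 163 were in no family. Shares of a family can be read against the 1.84% of all genes considered.

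Wnt pathway genes had the highest share of any family when all genes of a family were counted. Wnt proteins are secreted ligands that bind frizzled receptors with the co-receptors LRP5 and LRP6, stabilise β-catenin or, by other branches, steer cell polarity, and the pathway is known for its part in stem cell renewal and MLL-fusion leukaemia. The name pattern took in the α-catenin genes Ctnna1, Ctnna2 and Ctnna3 and left out Gsk3b and Tcf7l2, so the family is approximate. Of 76 Wnt pathway genes considered, 9 were f/f alone (11.8%, interval 6.36 to 21.0) and 0 KO alone. A further 25 were marked in both lists, 3 had an f/f end peak with a KO peak 1 to 5 kb away, and 39 were marked in neither. The 9 were receptors (Fzd1, Fzd3, Fzd6, Fzd8, Ryk), cell-internal inhibitors (Nkd1, Nkd2), a secreted inhibitor (Wif1) and a ligand (Wnt3), so both activators and inhibitors of the pathway were among them. Under a −log10 q limit of 5 on f/f peaks only, 4 Wnt genes were f/f alone and 2 KO alone. When transcription starts alone were used, 5 were f/f alone and 2 KO alone. Of the genes with an f/f end peak, 9 of 37 Wnt genes (24.3%) and 8 of 32 growth factor and receptor kinase genes were f/f alone. So were 5 of 10 peptide hormone genes and 7 of 13 olfactory receptor genes, against 3.51% of all. Of the genes with a KO end peak, 3 of 8 peptide hormone genes and 5 of 12 olfactory receptor genes were KO alone. The KO-alone counts were 0 of 25 for Wnt genes and 1 of 27 for growth factor and receptor kinase genes, against 2.35% of all. These shares were not matched for peak strength, and in the weakest of the 10 strength bins 24.0% of f/f-marked genes were f/f alone. All of the 9 Wnt genes but Fzd1 and Fzd3 had their peak in that bin.

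Among the frizzled receptors, which bind Wnt ligands at the cell surface, 4 of 10 were f/f alone, 4 were marked in both lists and 2 in neither. Fzd1 had no KO peak within 49.4 kb and an f/f peak at chr5:4757228-4758280 with a fold of 7.43 and a −log10 p of 40.2, covering part of the promoter printed above. Fzd3 had no KO peak within 48.8 kb and an f/f peak at chr14:65261860-65262865 with a fold of 6.75 and a −log10 p of 33.3. Fzd8 and Fzd6 had no KO peak within 233 kb and 52.1 kb, and weak f/f peaks with −log10 p of 6.06 at Fzd8 and 3.70 at Fzd6. Fzd4, Fzd5, Fzd7 and Fzd9 had peaks in both lists, and Fzd2 and Fzd10 in neither.

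Ryk, a Wnt receptor with a kinase-like domain, had no KO peak within 86.2 kb and an f/f peak with a −log10 p of 9.22. Nkd1 and Nkd2, the naked cuticle proteins that bind dishevelled and dampen the pathway, had KO peaks 23.2 kb and 14.6 kb away and f/f peaks with −log10 p of 9.19 at Nkd1 and 4.78 at Nkd2. Wif1, which binds Wnt ligands outside the cell, had no KO peak within 54.1 kb and an f/f peak with a −log10 p of 6.61. Wnt3 had a KO peak 22.3 kb away and an f/f peak with a −log10 p of 4.03. Only Fzd1 and Fzd3 of the 9 had strong f/f peaks, and the closest KO peak to the ends of any of them was the one at Nkd2.

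Much of the core of the pathway was marked in both lists. The dishevelled genes Dvl1, Dvl2 and Dvl3, the β-catenin gene Ctnnb1, the co-receptor gene Lrp6 and Apc, which drives β-catenin breakdown, had KO and f/f peaks at their ends. The R-spondin receptor gene Lgr4 and the ligase gene Znrf3, which removes frizzled receptors, were marked in both as well. Axin1, Axin2 and Lef1 were marked in neither, nor were most Wnt ligand genes. Axin2 had a KO peak 2629 bp from an end, while its nearest f/f peak lay 220402 bp away. The nearest f/f and KO peaks lay 4821 and 6403 bp from Axin1, and 15371 and 22087 bp from Lef1.

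Related small families were set side by side after their values were seen, so their counts are a description and lend no weight to each other. Of 10 planar cell polarity genes, whose products align cells in a sheet, 4 were f/f alone: Celsr1 (KO peak 9.82 kb away, f/f −log10 p 13.1), Celsr2 (6.13 kb, 4.02), Ptk7 (5.38 kb, 7.32) and Vangl2 (20.7 kb, 5.81). Of 6 Groucho genes, corepressors that act with TCF and Hairy-type factors, Tle1 and Tle6 were f/f alone and Tle3, Tle4 and Tle5 were marked in both. Tle1 had no KO peak within 621 kb, while its f/f peak at chr4:72199608-72201124 had a fold of 5.55. Bcl9, a β-catenin coactivator, had a KO peak 7.56 kb away and a weak f/f peak at its 3′ end with a −log10 p of 5.16. In all 11 small families compared, 0 genes were KO alone, against 1.22% of all genes considered. Because the families were chosen by their values, this 0 carries no weight either.

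**Figure D4:**
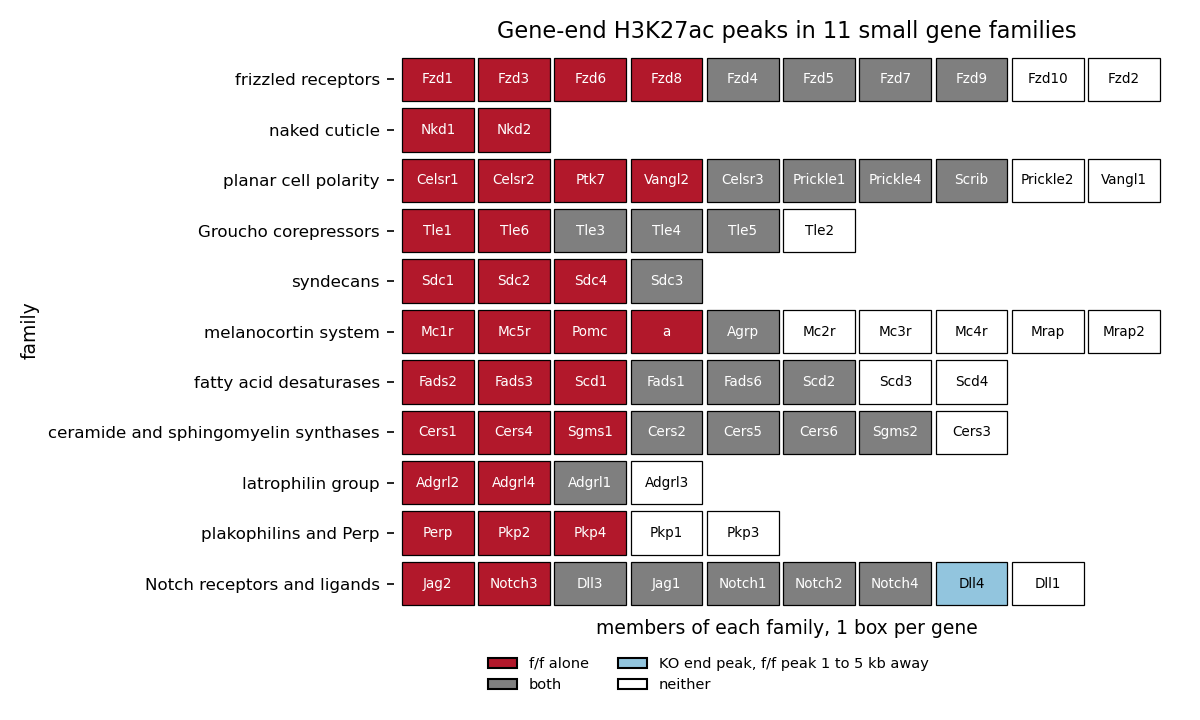
State of each gene in 11 small families chosen after their values were seen, 1 box per gene, filled by whether the end was marked by f/f peaks alone, in both lists, in KO with an f/f peak 1 to 5 kb away, or in neither. The frizzled row has 4 of 10 genes in f/f alone, the syndecan row 3 of 4, and no gene of the 11 families is in KO alone.

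Notch and Hedgehog genes came next by share, with 3 of 39 f/f alone (7.69%, 2.65 to 20.3) and 1 KO alone. Notch3, a receptor, had a KO peak 11.1 kb away and an f/f peak at its 3′ end at chr17:32121765-32122896 with a −log10 p of 23.3. Jag2, a Notch ligand, had a KO peak 9.07 kb away and an f/f −log10 p of 6.35, and Boc, a Hedgehog co-receptor, 18 kb and 3.84. Notch1, Notch2, Notch4 and Jag1 were marked in both lists.

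Of 109 growth factor and receptor kinase genes 8 were f/f alone (7.34%, 3.77 to 13.8) and 1 KO alone. Vegfc, a growth factor of lymphatic vessels, had no KO peak within 342 kb and an f/f peak at chr8:54076941-54077996 with a fold of 4.6 and a −log10 p of 11.6. Angpt1, the ligand of the receptor Tie2 that blood stem cells carry, had no KO peak within 578 kb and an f/f peak of 2209 bp at chr15:42675105-42677313 with a −log10 p of 21.8, and within 25 kb there were 0 KO peaks and 5 f/f peaks. Fgfr3, a fibroblast growth factor receptor, had no KO peak within 44.9 kb and an f/f −log10 p of 9.00. Fgf1, Fgf21, Igf2r, Insrr and Igfbp7 had nearest KO peaks from 7.63 kb at Fgf21 to 27.6 kb at Insrr, and f/f −log10 p from 10.8 at Fgf1 to 4.93 at Igfbp7. Angpt1 was the only strong one of the 8, and with a −log10 q of at least 5 asked of f/f peaks only, 4 of the family were f/f alone and 3 KO alone.

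Of 66 peptide hormone genes 5 were f/f alone (7.58%) and 3 KO alone, namely Pomc, Adm, which encodes the vessel-relaxing peptide adrenomedullin, Rln3, Insl6 and Nxph3, the last a neurexin ligand that the name pattern put here. The receptors and antagonist of the Pomc peptides also held f/f-alone genes: Mc1r, Mc5r and the agouti gene a, so that 4 of 10 melanocortin genes were f/f alone, 1 was marked in both lists and 5 in neither. Mc5r had no KO peak within 35.5 kb and an f/f −log10 p of 14.6. Mc1r had a KO peak 6.11 kb away and an f/f −log10 p of 4.59, and a had 7.44 kb and 6.09.

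Adhesion and matrix genes contributed the most genes of any named family, with 18 of 444 f/f alone (4.05%, 2.58 to 6.32) and 12 KO alone. Col19a1, a collagen, had a KO peak 28.1 kb away and an f/f fold of 5.75, and Adamts3, a protease that processes procollagen and VEGF-C, had no KO peak within 340 kb and an f/f fold of 5.24. With a −log10 q of at least 5 asked of f/f peaks only, 11 of the family were f/f alone and 22 KO alone. Ccn3, a matricellular protein, and Itga8, an integrin, had KO peaks 9.07 and 8.04 kb away and f/f folds of 5.17 and 4.59. Of the 4 syndecans, heparan sulfate carriers of the cell surface, Sdc1, Sdc2 and Sdc4 were f/f alone and Sdc3 was marked in both lists. Sdc1 had no KO peak within 95.9 kb and an f/f −log10 p of 10.6, whereas Sdc2 (48.1 kb) and Sdc4 (9.22 kb) had 3.76 and 3.21. Further cell junction genes, named after their values were seen, were Cdh1, the E-cadherin gene (KO peak 7.28 kb away, f/f −log10 p 9.53), Epcam (12.9 kb, 6.16), Pkp2 (29.7 kb, 9.78) and Perp, a desmosomal p53 target (12.7 kb, 24.9), while the plakophilin genes Pkp1 and Pkp3 were marked in neither list.

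Lipid and steroid enzymes gave 12 of 414 genes f/f alone (2.90%, 1.67 to 4.997) and 10 KO alone. Fads2, the delta-6 desaturase of polyunsaturated fatty acids, had no KO peak within 39.3 kb and an f/f peak at chr19:10100591-10102320 with a −log10 p of 96.6. Within 25 kb of Fads2 there were 0 KO peaks and 5 f/f peaks. Its neighbour Fads3 (KO peak 17.4 kb away) and the stearoyl-CoA desaturase Scd1 (5.24 kb) were f/f alone with −log10 p of 6.24 at Fads3 and 10.8 at Scd1, while Fads1, Fads6 and Scd2 were marked in both lists. Of the ceramide and sphingomyelin synthases Cers4 (KO peak 82.1 kb away, f/f −log10 p 23.9), Cers1 (9.85 kb, 11.8) and Sgms1 (9.26 kb, 21.9) were f/f alone and Cers2, Cers5, Cers6 and Sgms2 were marked in both. Sgms1 had 17 KO peaks and 10 f/f peaks in the gene and its flanks. Cyp46a1, the cholesterol 24-hydroxylase of brain, had no KO peak within 58.0 kb and an f/f fold of 6.13, and Plcb4, a phospholipase of G protein signalling, a KO peak 19.4 kb away and an f/f −log10 p of 63.8.

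G protein-coupled receptors gave 9 of 305 genes (2.95%) f/f alone and 6 KO alone. Adgra3 had no KO peak within 1073 kb and an f/f peak at chr5:50058182-50059436 with a −log10 p of 34.8, and its promoter is printed above. The latrophilin Adgrl2 and its relative Adgrl4, neighbours on chromosome 3, had no KO peak within 96.7 kb and 12.7 kb, and f/f −log10 p of 12.7 at both. Htr1b, Gprc5a, Ptger1 and Hrh4, the last a histamine receptor of blood cells, had −log10 p from 3.73 at Hrh4 to 6.15 at Htr1b.

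Cytokine, chemokine and TNF genes were as often f/f alone as KO alone, with 7 of 227 (3.08%) each. Traf3ip2, an adaptor of the IL-17 receptor, had a KO peak 19.7 kb away and an f/f −log10 p of 13.2. Il20ra, Tnfsf9, Il27ra, Il7, Il6 and Ccr3 had nearest KO peaks between 5.33 kb at Il20ra and 26.2 kb at Tnfsf9 and f/f −log10 p between 3.64 at Il6 and 7.27 at Il20ra. Thpo, the thrombopoietin gene, which was in no family, had a KO peak 5.80 kb away and an f/f peak at its 3′ end with a −log10 p of 5.73.

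Some of the f/f-alone genes are known from blood stem cells or leukaemia, and they are named here after their values were seen, not as members of a counted list. Cd34, a stem and progenitor surface protein, had a KO peak 14.9 kb away and an f/f peak at chr1:194938732-194939309 with a fold of 2.37 and a −log10 p of 8.16. Mecom, which encodes the stem cell factor EVI1, had no KO peak within 52.9 kb of its ends, 3 KO peaks inside the gene and an f/f −log10 p of 6.98. Hoxa4 (19.6 kb, 10.8), Setbp1 (136 kb, 3.66) and Irf4 (18.7 kb, 4.70), a factor of lymphocytes, had weak peaks, with distance to the nearest KO peak and f/f −log10 p given for each. Zbtb16, the PLZF gene, had a KO peak 32.9 kb away and an f/f −log10 p of 50.2, and the gene and its flanks held 1 KO peak and 13 f/f peaks. Lmo1, a LIM-only cofactor, had no KO peak within 34.0 kb and an f/f −log10 p of 20.7. Nrip1, a corepressor of nuclear receptors, had no KO peak within 146 kb and an f/f peak at chr16:76372184-76373668 with a −log10 p of 65.3. Cda, the cytidine deaminase that inactivates cytarabine, had a KO peak 12.1 kb away and a weak f/f peak with a −log10 p of 3.72.

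Other sequence-specific factors gave 7 of 283 genes (2.47%) f/f alone and 4 KO alone, none of the 7 with a strong f/f peak. Zinc finger (Zfp) genes gave 6 of 438 (1.37%) f/f alone and 8 KO alone, and 5 of the 6 had strong peaks, among them Zfp599 (KO peak 17.8 kb away, f/f fold 7.17), Zfp551 (55.4 kb, 6.88) and Zfp931 (41.9 kb, 5.73). Homeobox genes gave 2 of 174 (1.15%) f/f alone, Hoxa4 and Pou3f1, and 3 KO alone (1.72%). Kinase and phosphatase genes gave 8 of 439 (1.82%) f/f alone and 3 KO alone. Ppp1r14c, an inhibitor of protein phosphatase 1, led them with a KO peak 21.3 kb away and an f/f −log10 p of 65.5, and Src, the tyrosine kinase, had 14.3 kb and 6.13. The focal adhesion kinase gene Ptk2, in no family, had a KO peak 19.5 kb away and an f/f −log10 p of 14.1.

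Ubiquitin and BTB-Kelch genes gave 8 of 510 (1.57%) f/f alone and 7 KO alone, with Trim6 (KO peak 8.84 kb away, f/f fold 6.06) and Klhl14 (548 kb, 4.41) in front. Membrane traffic genes gave 6 of 369 (1.63%) and 4, with Vamp9 (9.86 kb, 7.23), Arfgef3 (87.8 kb, 6.70) and Rab38 (110 kb, 5.21), a small GTPase of melanosomes and platelet granules. Ion channels gave 6 of 328 (1.83%) in each list, with Trpc1 (50.8 kb, 6.34) and Kcnq5. Cytoskeletal genes gave 8 of 364 (2.20%) and 5, with Plekha5, which the name pattern put here, Pdlim1 (20.4 kb, 5.79) and Tubb2b (32.2 kb, 4.2). Glycosyltransferases gave 6 of 212 (2.83%) and 2, with St3gal5, the GM3 ganglioside synthase (7.48 kb, 4.90), and Ext1, a heparan sulfate polymerase (210 kb, 4.26). Solute carriers gave 7 of 397 (1.76%) and 5, none of the 7 strong.

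Smaller groups followed. Coiled-coil and Fam genes of unassigned role gave 6 of 343 (1.75%) f/f alone and 3 KO alone, 4 of the 6 with strong peaks: Fam174b, Ccdc148, Fam78b (KO peak 131 kb away, f/f fold 6.26) and Ccdc54 (59.7 kb, 3.68). G protein and cyclic nucleotide genes gave 4 of 130 (3.08%) and 2, led by Gna14, a Gq-class alpha subunit (62.1 kb, 4.23), and Pde5a, which breaks down cyclic GMP (64.4 kb, 3.84). Ras-related genes gave 3 of 89 (3.37%) and 2: Garem1, Spry4, an inhibitor of receptor kinase signalling (80.0 kb, 3.02), and Rasl11a (11.2 kb, 3.01). The name pattern put Garem1 and Spry4 here, and neither encodes a Ras-like GTPase. Transporter ATPases and ABC genes gave 3 of 108 (2.78%) and 1, among them Abca1, the cholesterol exporter (18.3 kb, 3.05). Plxna1, a semaphorin receptor (57.4 kb, 5.56), and Ephb2, an ephrin receptor (5.09 kb, 5.36), were 2 of 70 axon guidance genes, of which 4 were KO alone.

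Immune receptor and lectin genes gave 6 of 299 (2.01%) f/f alone and 8 KO alone, and none of the 6 had a strong peak. Next to Cd34 they were Clec9a, a marker of cross-presenting dendritic cells (KO peak 9.77 kb away, f/f fold 4.09), Cd300lg (56.5 kb, 4.08), Cd59b (27.7 kb, 3.88), Klra17 (6.48 kb, 3.29) and Clec10a (35.9 kb, 2.46). Serpin, cathepsin and protease genes gave 4 of 279 (1.43%) and 7, with Wfdc5, a protease inhibitor, in front (19.7 kb, 4.39). Forkhead, Sox and T-box genes gave Tbx1 and Sox8 of 70, both weak, and 1 KO alone.

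Some families held few or none. Of 235 histone and chromatin genes 0 were f/f alone and 0 KO alone, with 167 marked in both lists. Nuclear receptor genes had 0 of 48 and 1, and mitochondrial, ribosomal and RNA-processing genes 3 of 654 (0.459%) and 1, with 573 marked in both. The 3 were Rbp4 (KO peak 18.9 kb away, f/f fold 6.16), a retinol carrier of plasma that the name pattern put here, Rbpms and Eif5a2. Of 1408 olfactory and vomeronasal receptor genes, 7 were f/f alone (0.497%) and 5 KO alone, and only 12 had a KO peak and 13 an f/f peak at an end. Olfr1509 and Olfr1310 had no KO peak within 135 kb and 207 kb and f/f folds of 4.55 at Olfr1509 and 4.22 at Olfr1310.

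**Figure D5:**
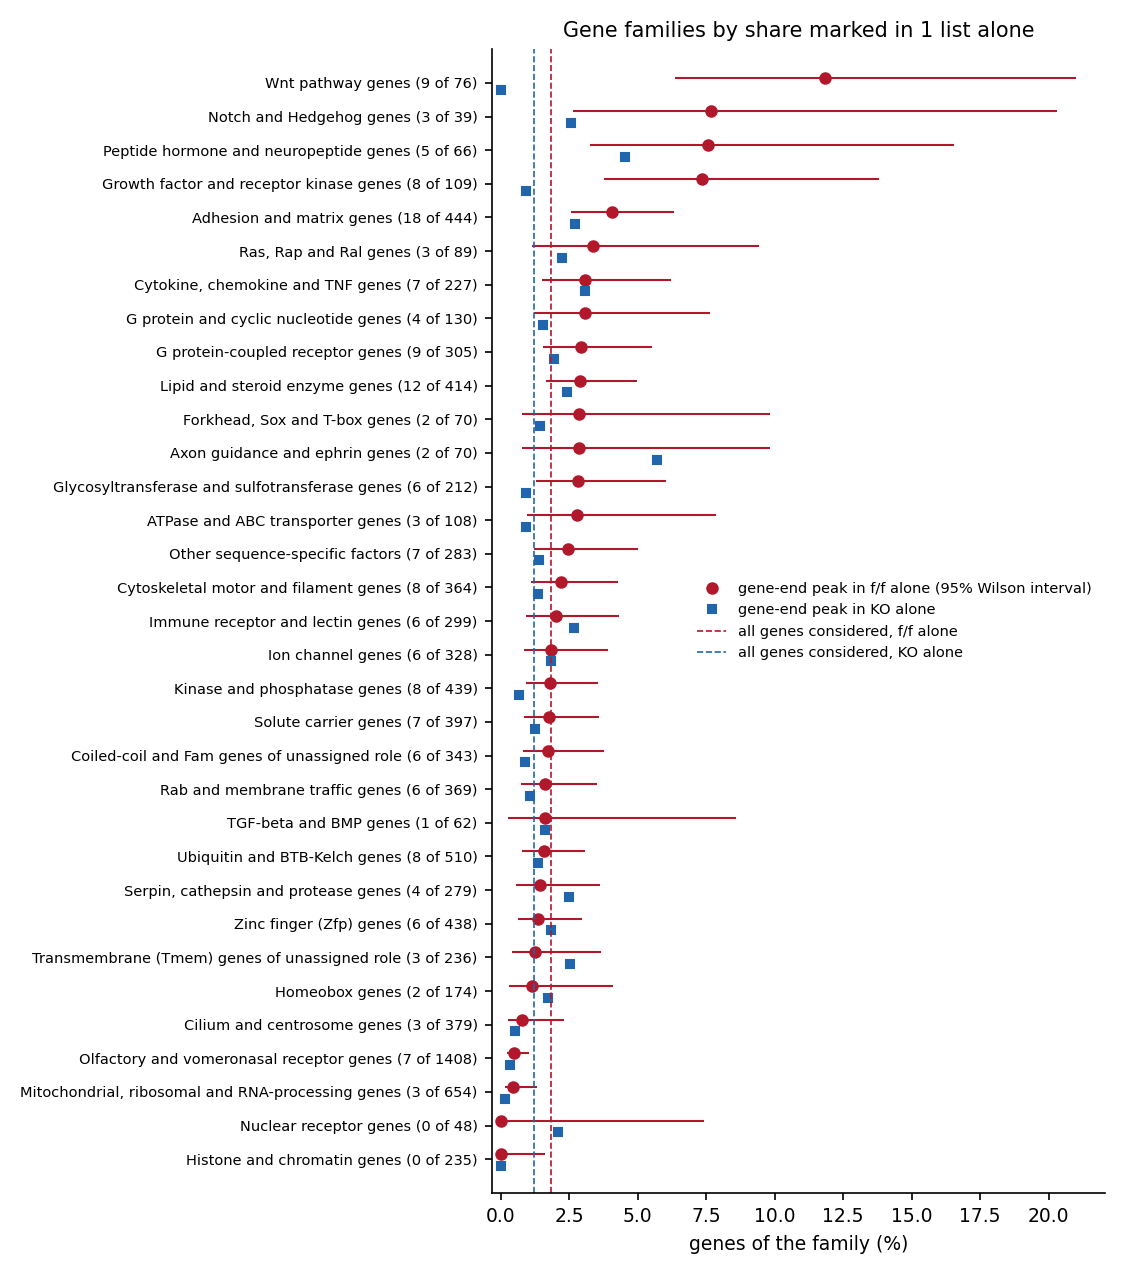
Percent of the genes of each family shown that were f/f alone (circles, with 95% Wilson intervals) or KO alone (squares), with the number f/f alone of all considered in brackets and dashed lines at 1.84% (f/f alone) and 1.22% (KO alone) for all genes. Wnt pathway genes stand highest, with 11.8% f/f alone and 0 KO alone, and histone and chromatin genes are at 0 for both.

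Some of the genes lay side by side. There were 23 runs of neighbouring f/f-alone genes, with 48 genes in all, and in 11 of them the genes shared 1 peak. Shared peaks joined Ccdc148 and Pkp4, Cers1 and Gdf1, Fgf21 and Fut1, Amh and Jsrp1, Cyp24a1 and Pfdn4, Il27ra and Rln3, Kctd19 and Lrrc36, Cilp2 and Yjefn3, Plxna1 and Gm40415, Spry4 and Arhgap26, and Vegfc and Gm33153. In these cases 1 peak gave both genes, so they are not separate observations. Runs of 3 genes with a peak each were Mpp3, Cd300lg and Mpp2 on chromosome 11 and Ttll7, Adgrl2 and Adgrl4 on chromosome 3. By chromosome, the share of f/f-marked genes that were f/f alone ran from 1.87% on chromosome 12 (7 of 374) to 7.57% on chromosome 18 (19 of 251).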

How the data were processed

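H3K27ac ChIP-seq peak lists of 1 Gata2 KO and 1 Gata2 f/f library were analysed, grouped by the genotype in the labels. The submitters' processing notes name MACS2, BWA, SAMtools and mm10, and the lists have the broad peak format. Their versions and options, any input library and the number of reads are not stated in the labels or files used, and depth is unknown. Each peak has a fold enrichment (a ratio) and −log10 p and q-values, all deposited by the authors. No single peak's value was compared between the lists. The list medians of −log10 p were given side by side, and some alternatives set the same q or fold limit on both lists.

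Genes are the protein-coding genes of a RefSeq table of GRCm38.p6. Distances run from a peak to the nearer gene end. The chromosome starts left out ended at 4.5 Mb on chromosome 4, 4.6 on 6, 10.5 on 7, 4.3 on 13, 5.4 on 18 and 4.2 on 19. The choice of the genes was tested on simulated data, and bedtools 2.31.1 gave the same 376 genes. The 95% Wilson intervals of shares hold counting error alone. Python 3.11.15, pandas 2.3.3 and statsmodels 0.14.6 were used.

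The genes, families and sequence words were chosen with earlier results of these data known. Families are name patterns, of which 1 is not reported here, and the 11 small families and the Fzd1 and Olfr1310 promoters were chosen after the peak values were seen. Any f/f-alone gene could be named. Values were planned for the 20 highest folds, the 10 widest peaks, the 8 genes farthest from KO peaks, those at the limits, up to 4 per family and neighbouring runs, and other genes named were chosen after their values were seen. Alternatives were a lower limit on −log10 q (5) or on fold (3), equal numbers of peaks, other distances, the chromosome starts and the transcription start alone.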

Additional observations from a re-analysis of the deposited data

How the results depend on the processing

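The number of f/f-alone genes, 376 behind 368 peaks, lay between 260 and 435 genes under 7 of the 10 alternatives. It was 816 genes and 766 peaks with a fold of at least 3 in both lists, 187 and 184 with a −log10 q of at least 5 asked of f/f peaks only, and 571 and 559 with a KO distance of 1000 bp. The share of f/f-marked genes that were f/f alone, 3.51%, was 8.47% under that fold limit, 1.86% under the f/f q limit, 3.95% with the q limit in both lists, 3.90% with equal numbers of peaks, 5.33% at a KO distance of 1000 bp and 2.43% at 10000 bp. The share without a KO peak in the gene or within 25 kb, 37.5%, was 32.0%, 48.1%, 45.5% under the same 3 limits, 24.7% and 54.2% at these distances and 32.4% with transcription starts alone. The cause was not tested, apart from the construction of the limits: the q limit on f/f peaks removes weak f/f peaks and keeps all KO peaks. Across the 8 settings other than the transcription start and the chromosome starts, 128 of the 376 genes were kept in every one. Not all of the 8 could drop a gene. The 2000 bp window, the KO distance of 1000 bp and the equal numbers of peaks, which cut the KO list only, kept all 376 by construction. The q limit in both lists kept the same 187 genes as the q limit on f/f peaks only. Under the f/f q limit the KO-alone genes numbered 572, against 249 in the report, so that they outnumbered the 187 f/f-alone genes. Wnt pathway genes numbered 4 to 12 f/f alone (9 in the report) and 0 to 2 KO alone over the alternatives. Under the f/f q limit adhesion and matrix genes were 11 f/f alone and 22 KO alone (18 and 12 in the report), and growth factor and receptor kinase genes 4 and 3 (8 and 1). Windows with a GATA hexamer were 8.82% for strong f/f-alone peaks and 11.6% for windows wholly under a peak, against 13.7% in the report, both chosen after seeing the data. No paired analysis was possible because each genotype has 1 library. Weak peaks, whose calling depends on depth, make up most of the genes.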
